A study of Mus musculus with 12 samples.

Results

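Transcripts of 10 antioxidant enzymes were followed through RNA of mouse samples labelled as adult dorsal root ganglion (DRG) neurons. They were the peroxiredoxins Prdx1, Prdx2, Prdx3, Prdx4, Prdx5 and Prdx6, the superoxide dismutases Sod1 and Sod2, the glutathione peroxidase Gpx4 and the thioredoxin Txn1. They were chosen by name, with earlier results of these data known. Each was matched to 1 Ensembl mouse gene, and all 10 were among the 9073 genes of the deposited table. The mice carried RPL22HA+/+;Advillin-Cre+, so that the Cre, driven by the sensory neuron promoter Advillin, switches on a haemagglutinin (HA) tag on ribosomal protein L22 in sensory neurons. Neurons had received AAV-control or AAV-shGpr151, a viral vector with a hairpin against the orphan receptor Gpr151, and RNA was taken from the lysate (Input) or from its anti-HA immunoprecipitate (IP), which retains transcripts on tagged ribosomes. Each of the 4 groups (control and shGpr151, each as Input and as IP) has 3 columns in the table. The series design speaks of cultured neurons after a sciatic nerve injury, and the extraction protocol of freshly collected ganglia. The labels give no number of animals.

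Superoxide, a by-product of respiration, is converted to hydrogen peroxide by the dismutases, of which Sod1 is the cytosolic copper and zinc enzyme and Sod2 the manganese enzyme of the mitochondrial matrix. Peroxiredoxins reduce the peroxide with a reactive cysteine and are returned to the reduced state mainly by thioredoxin, while Gpx4, a selenoenzyme, reduces lipid peroxides in membranes with glutathione and is known for holding back ferroptosis. Sensory neurons, with long axons rich in mitochondria, express these enzymes constitutively, and several of the genes are targets of the stress-responsive transcription factor Nrf2.

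Columns of the same group were as alike as repeated draws from 1 library, with chi-square per degree of freedom of 0.98 to 1.05 in the 12 pairs of columns within groups. Each group was therefore counted as 1 library, and no comparison has a replicate check. Whether columns of 2 libraries overlap describes their counts only and is no support for a difference. How often columns are separate among all tested genes was not counted. Summed totals were 6332991 counts in Input control, 6148538 in Input shGpr151, 4245486 in IP control and 3285258 in IP shGpr151. Intervals in parentheses are 95% and cover only counting error, because each group is 1 library. PCR duplicates could not be recognised and reads are not independent molecules, so the intervals may be too narrow even for that error. "Called" means past an adjusted p of 0.05 in the quasi-likelihood test of edgeR, run on all 12 columns over 8312 tested genes, which compares these libraries and not the treatments. Gpr151 itself had 24 and 13 counts in the Input libraries and 314 and 250 in the IP libraries (control, then shGpr151). Its log2 ratio was -0.86 (-1.96 to 0.17) in Input and -0.0018 (-0.25 to 0.24) in IP, so the libraries are named by their labels. All 15 neuronal markers were in the table, and their summed level was 1645 CPM (counts scaled to a common library total) in Input control and 21600 CPM in IP control. On that scale the median tested gene was also higher in IP control, by 2.23 on the log2 scale. Satellite glia markers had 907 and 3032 CPM, Schwann cell markers 454 and 1382 CPM, and fibroblast markers 559 and 1064 CPM. In IP against Input of control, 14 neuronal markers were called higher and 1 lower, against 32.5% and 32.8% of all tested genes. Satellite glia calls were 4 higher and 4 lower, and fibroblast calls 3 and 4. Calls were 2 and 4 among Schwann cell, 1 and 9 among macrophage and immune, and 1 and 3 among endothelial and mural markers. With shGpr151, against 33.6% and 33.0% of all tested genes, neuronal calls were 14 and 0. They were 6 and 2 among satellite glia, 4 and 3 among fibroblast, and 2 and 4 among Schwann cell markers. Macrophage and immune markers had 2 and 9, and endothelial and mural ones 1 and 3. In bulk RNA, fewer cells of a type and less RNA per cell cannot be told apart.

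In Input, most of the antioxidant enzymes were higher in the library labelled shGpr151. Of the 10 genes, 7 were called higher (Prdx1, Prdx2, Prdx4, Prdx5, Prdx6, Sod1 and Gpx4), against 8.31% of all tested genes, and 1, Sod2, was called lower, against 8.66%. Among the 2020 genes with at least 1000 counts summed over the 4 libraries, where small ratios pass the test more easily, 25.4% were called higher and 24.7% lower, and 9 of the 10 enzymes belong to these genes. The median log2 ratio of the 10 was 0.47, beside -0.066 for all tested genes and -0.026 for the 2020 abundant ones. The 3 enzymes over 1.5-fold higher were Prdx4, Prdx6 and Sod1, where 9.29% of all genes and 5.40% of the abundant ones were over 1.5-fold higher. None of the 10 was over 1.5-fold lower, against 13.5% of all genes and 4.31% of the abundant ones.

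Prdx6, the peroxiredoxin with a single reactive cysteine, which also reduces phospholipid peroxides, differed most. Its columns held 118, 104 and 114 counts in Input control and 201, 184 and 208 in Input shGpr151. The 2 sets did not overlap, and the log2 ratio was 0.84 (0.65 to 1.04), a 1.79-fold difference. When each group was summed and the biological coefficient of variation (BCV) set to 10%, Prdx6 was the only one of the 10 still called.

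Sod1 had 472, 494 and 448 counts in Input control and 763, 738 and 725 in Input shGpr151. Every shGpr151 column was above every control column, with a log2 ratio of 0.68 (0.58 to 0.77). Prdx4, the peroxiredoxin of the endoplasmic reticulum, which couples peroxide removal to disulfide formation, had 209, 245 and 205 counts against 367, 320 and 342. Its columns did not overlap and its log2 ratio was 0.66 (0.52 to 0.81).

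Prdx1 and Prdx2, the cytosolic peroxiredoxins with a pair of reactive cysteines, differed by similar amounts. Prdx1 had 3023, 3042 and 3084 counts in Input control and 4358, 4314 and 4409 in Input shGpr151, a log2 ratio of 0.54 (0.50 to 0.58). Prdx2 had 584, 558 and 579 counts against 829, 797 and 749, a log2 ratio of 0.49 (0.40 to 0.58). The columns of both genes were separate between the libraries. Gpx4 had 2078, 2105 and 2053 counts against 2571, 2601 and 2569, also without overlap, and a log2 ratio of 0.33 (0.28 to 0.38).

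Prdx5, a peroxiredoxin found in mitochondria, peroxisomes and cytosol, differed less. It had 551, 600 and 619 counts against 663, 691 and 629, a log2 ratio of 0.19 (0.092 to 0.28). Its call was lost without the first Input control column, at 0.14, and without the second Input shGpr151 column, at 0.15, and among genes with a mean of at least 20 counts, at 0.12. Prdx3, the peroxiredoxin of the mitochondrial matrix, had only 16, 15 and 11 counts against 19 in each of the 3 columns. Its log2 ratio of 0.46 (-0.14 to 1.07) was not called, and the interval holds both 0 and the value of Prdx6.

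Sod2 and Txn1 did not go with the others. Sod2 had 747, 797 and 730 counts in Input control and 671, 542 and 700 in Input shGpr151, a log2 ratio of -0.23 (-0.32 to -0.14). The column with 542 counts stood apart from its 2 partners. Chi-square per degree of freedom over the 3 columns was 11.1 for Sod2 in that library, and at most 2.20 in the other 39 combinations of gene and library. Without that column the log2 ratio was -0.13 and Sod2 was not called, nor was it called by DESeq2. Txn1, the cytosolic thioredoxin that recharges peroxiredoxins, had 2758, 2782 and 2766 counts against 2632, 2621 and 2661. The log2 ratio was -0.049 (-0.093 to -0.0040), not called, although the columns did not overlap.

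**Figure D1:**
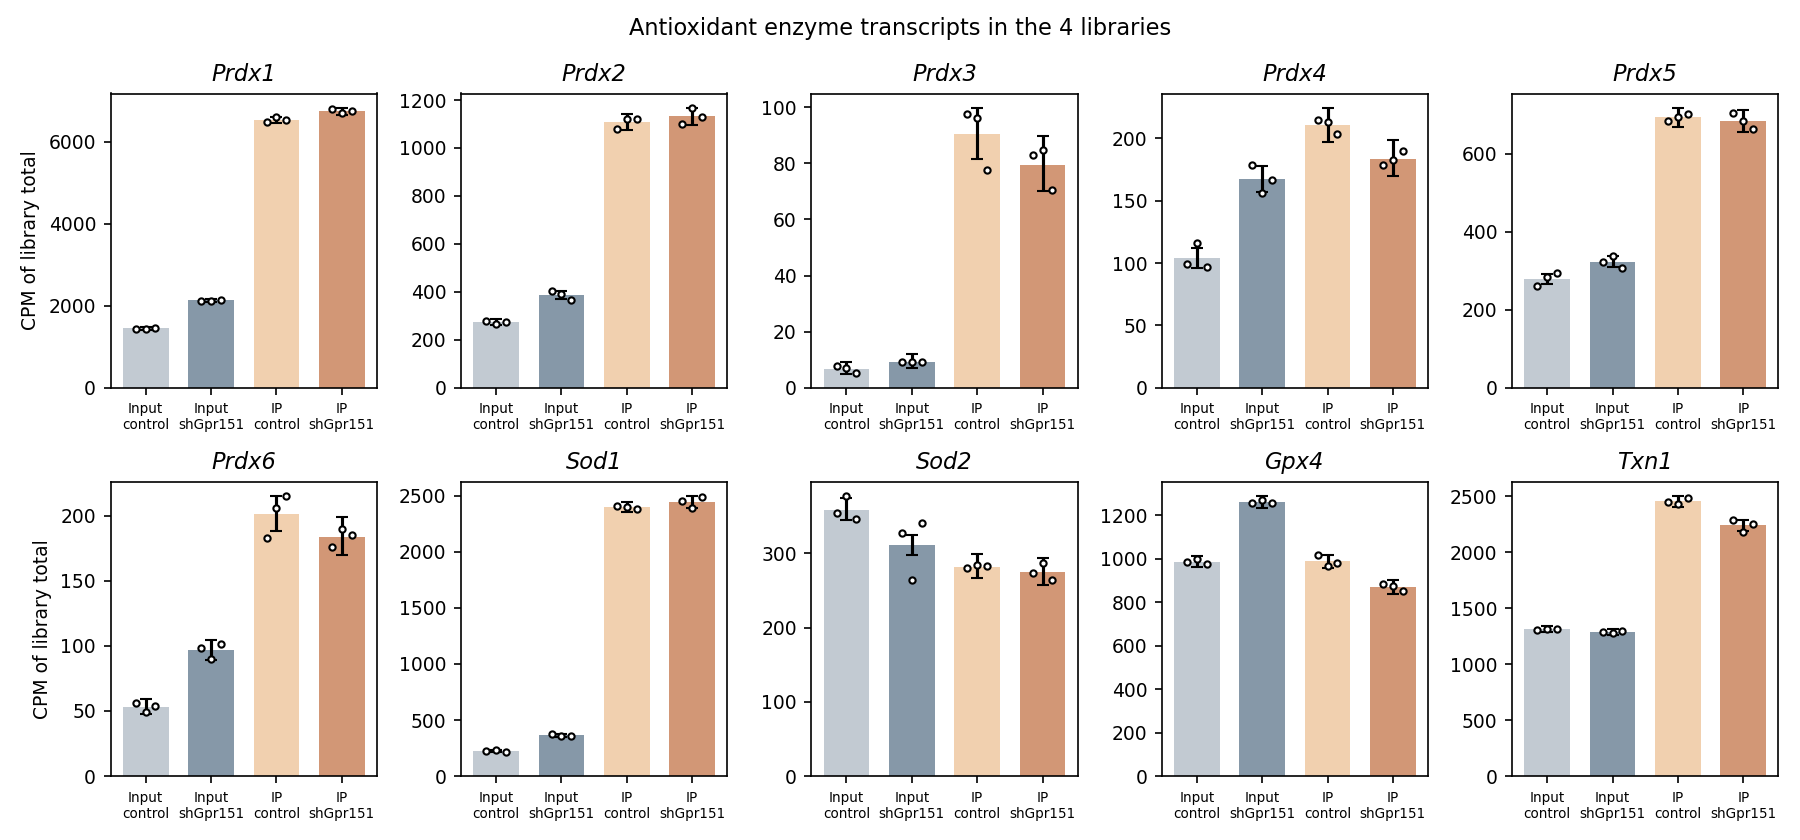
Level of each of the 10 transcripts in CPM of the library total, 1 panel per gene with its own linear axis from 0. Bars are the 4 libraries (3 columns summed), error bars are exact Poisson 95% intervals and white points are the 3 columns of each library. For Prdx1, Prdx2, Prdx4, Prdx6, Sod1 and Gpx4 the dark Input shGpr151 bar stands clearly above the light Input control bar, and for Sod2 1 Input shGpr151 column lies far below its 2 partners.

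The Prdx1 and Sod1 promoters are shown because these were the 2 of 9 enzymes with a RefSeq promoter entry that held the core of the antioxidant response element, the motif bound by Nrf2. Both transcripts were called higher in Input shGpr151, as were Prdx2, Prdx4, Prdx5 and Gpx4, whose windows held no match. The motif searched was TGACNNNGC on both strands, in windows from 250 bases before to 50 after each gene start, and 12.4% of all 32851 such windows held it. The search covered 12 windows of the 9 genes, 4 of them for Gpx4, and 2 of the 12 windows held the motif. Each sequence gives the 250 bases before the gene start, 5′ to 3′, and capitals mark the match, which lies on the opposite strand in both and therefore reads in reverse complement. The Prdx1 stretch is chr4:116685349-116685598 and the Sod1 stretch chr16:90220512-90220761, both on the plus strand of GRCm38.p6, the build of the RefSeq table.
Prdx1: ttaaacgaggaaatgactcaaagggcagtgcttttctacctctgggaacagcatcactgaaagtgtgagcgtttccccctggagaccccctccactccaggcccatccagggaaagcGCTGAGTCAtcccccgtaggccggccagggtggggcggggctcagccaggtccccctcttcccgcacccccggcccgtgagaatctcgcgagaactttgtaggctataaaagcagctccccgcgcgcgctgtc
Sod1: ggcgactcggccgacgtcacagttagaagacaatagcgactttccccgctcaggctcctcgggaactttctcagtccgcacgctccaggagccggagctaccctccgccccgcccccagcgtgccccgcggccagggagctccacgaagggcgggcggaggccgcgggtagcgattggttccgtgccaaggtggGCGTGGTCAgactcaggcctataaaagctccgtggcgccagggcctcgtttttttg
Relative to the gene start the match begins at -133 in Prdx1 and at -56 in Sod1. A match is a description of these letters, and no binding was measured.

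In the IP libraries, the same comparison gave smaller differences and none of the 10 was called higher, where 3.72% of all tested genes and 8.76% of the abundant ones were. Gpx4, Txn1 and Prdx4 were called lower in IP shGpr151, 3 of 10 against 4.97% of all tested genes and 18.2% of the abundant ones. No enzyme differed by 1.5-fold in either direction, which 3.54% of tested genes did upward and 2.35% downward. The median log2 ratio of the 10 was -0.13, beside 0.0035 for all tested genes and -0.062 for the abundant ones. At an assumed BCV of 10% with 1 library per group, 0 of the 10 were called.

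Gpx4 columns held 1439, 1364 and 1387 counts for IP control. They held 969, 958 and 930 for IP shGpr151, a smaller library. Scaled to the library totals these were 987 CPM (957 to 1017) and 870 CPM (838 to 902), without overlap of columns, and the log2 ratio was -0.23 (-0.29 to -0.16). Txn1 had 3465, 3439 and 3520 counts against 2506, 2392 and 2463, which correspond to 2455 CPM and 2241 CPM. Its columns did not overlap, and its log2 ratio was -0.17 (-0.22 to -0.13). Prdx4 had 304, 302 and 288 counts against 196, 200 and 208, a log2 ratio of -0.24 (-0.39 to -0.088). Its columns were separate too, but the call was lost in DESeq2, on library totals, and without any of 4 single columns (the first or second of either IP library), at -0.25 to -0.24.

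The other enzymes were not called between the IP libraries. Prdx1, with 9189, 9349 and 9250 counts against 7439, 7347 and 7400, had a log2 ratio of 0.0023 (-0.023 to 0.028). The interval thus excludes the difference seen for Prdx1 in Input. The same holds for Sod1, with 3416, 3398 and 3369 counts against 2687, 2622 and 2721 and a log2 ratio of -0.016 (-0.058 to 0.027). Prdx2 had 1529, 1587 and 1586 counts against 1202, 1280 and 1236, a log2 ratio of -0.012 (-0.074 to 0.051). On TMM sizes (trimmed mean of M values, the scale of the ratios) the columns of these 3 genes overlapped, as did those of Prdx3 and Prdx6, while those of Prdx5 and Sod2 did not. On CPM of library totals those of Prdx1 did not overlap and those of Prdx5 and Sod2 did.

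Prdx5 had 968, 983 and 995 counts against 771, 751 and 726, a log2 ratio of -0.063 (-0.14 to 0.017). Prdx6 had 259, 291 and 304 counts against 193, 208 and 203, a log2 ratio of -0.17 (-0.33 to -0.021). Without the first IP control column, which was the lowest of its 3, Prdx6 was called lower, at -0.26. Sod2 had 396, 403 and 400 counts against 300, 315 and 289, a log2 ratio of -0.080 (-0.21 to 0.045). Prdx3 had 138, 136 and 110 counts against 91, 93 and 77, a log2 ratio of -0.23 (-0.46 to 0.00063).

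The hairpin ratio in IP minus that in Input was tested directly for each gene. It was below 0 for 9 of the 10 enzymes and called lower for 8, against 8.82% of all tested genes and 28.3% of the abundant ones, and called higher for 0, against 5.41% and 14.1%. The median difference of the 10 was -0.55 on the log2 scale, beside 0.059 for all tested genes and -0.044 for the abundant ones. Prdx6 had -1.01 (-1.26 to -0.77), Prdx4 -0.90 (-1.11 to -0.70) and Sod1 -0.69 (-0.80 to -0.59). Gpx4 had -0.56 (-0.64 to -0.47), Prdx1 -0.53 (-0.58 to -0.49) and Prdx2 -0.50 (-0.61 to -0.39). The differences of Prdx5 and Txn1 were smaller, at -0.25 (-0.37 to -0.13) and -0.13 (-0.19 to -0.064), and neither was called among genes with a mean of at least 20 counts, at -0.16 and -0.042. Prdx3, at -0.69 (-1.31 to -0.074), and Sod2, at 0.15 (-0.0044 to 0.30), were not called, although Prdx3 was called lower without the third IP control column, at -0.87, and Sod2 higher among genes with a mean of at least 20 counts, at 0.23. At an assumed BCV of 10%, 0 of the 10 were called.

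**Figure D2:**
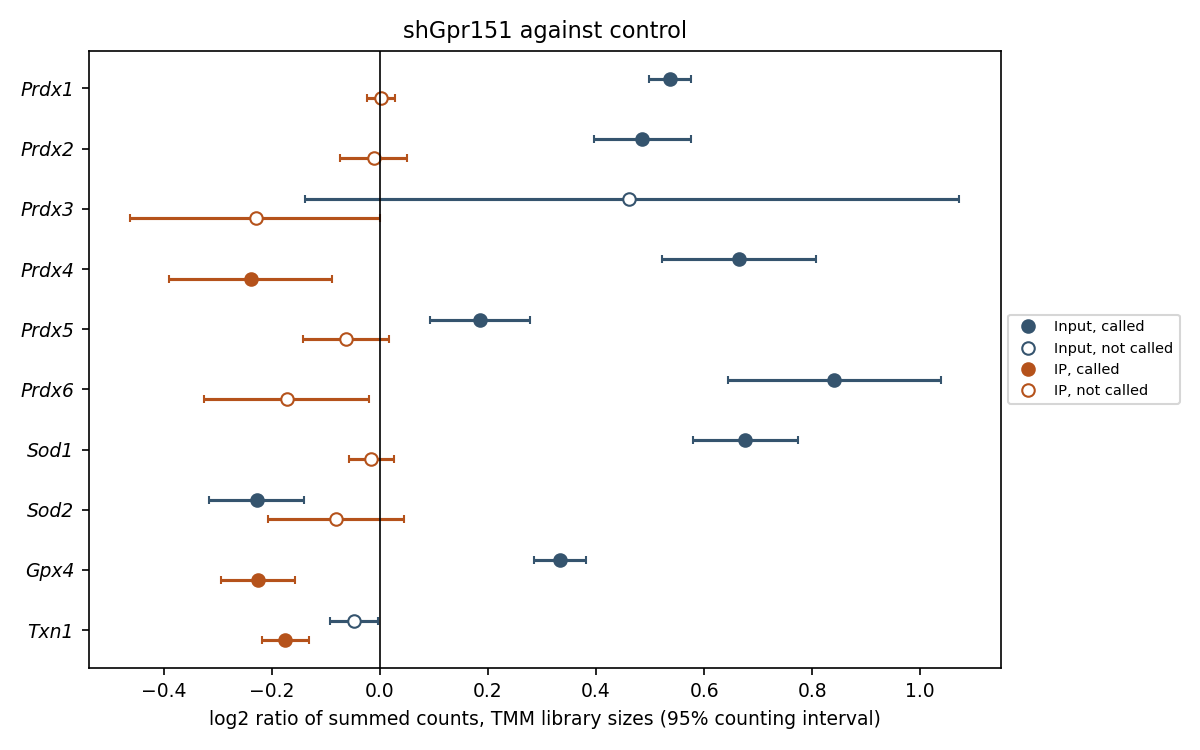
Log2 ratio of shGpr151 to control for each enzyme in Input (blue) and in IP (orange), from summed counts on TMM library sizes, with 95% counting intervals. Filled points are called and open points are not. The 7 filled Input points to the right of 0 run from 0.19 for Prdx5 to 0.84 for Prdx6, with the open point of Prdx3 among them, while every IP point lies between -0.24 and 0.0023.

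IP was compared with Input within each treatment. Input is the lysate and held markers of other cells. How far a transcript is restricted to sensory neurons and how far it sits on ribosomes therefore cannot be told apart here. Library scaling matters here. On TMM sizes, which centre the bulk of genes near 0, log2 ratios are lower by 2.17 in control and 2.20 with shGpr151 than on library totals. On TMM sizes in control, Prdx3 and Sod1 were called higher in IP, 2 of 10 against 32.5% of all tested genes and 34.8% of the abundant ones, and 7 were called lower, against 32.8% of all tested genes and 58.9% of the abundant ones. On library totals 8 of the 10 were called higher, against 83.8% of all tested genes, and 1, Sod2, lower, against 11.1%, and the median of all tested genes was 2.23.

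The enzymes spread widely around their median of -0.56 on TMM sizes in control, where the median of the abundant genes was -0.82. Prdx3 had 1.60 (1.13 to 2.09) and Sod1 1.252 (1.17 to 1.33), so both were above the median gene, at 0.056. Prdx1 lay at 0.0067 (-0.027 to 0.041), not called, and Prdx2 and Prdx6 just below 0, at -0.15 (-0.23 to -0.066) and -0.25 (-0.43 to -0.064). The calls of Prdx1, Prdx2 and Prdx6 changed when single columns were left out or low genes were filtered otherwise. Prdx5 had -0.86 (-0.95 to -0.78), Prdx4 -1.16 (-1.30 to -1.01) and Txn1 -1.27 (-1.31 to -1.23). Gpx4, at -2.17 (-2.23 to -2.11), and Sod2, at -2.52 (-2.62 to -2.42), were lowest. On library totals Gpx4 was level between IP and Input, at 0.0054, and Sod2 remained below 0, at -0.34.

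With shGpr151, Prdx3 and Sod1 again had the highest ratios and Gpx4 and Sod2 the lowest, and 9 of the 10 ratios lay lower than in control. The median of the 10 was -1.19, beside 0.099 for all tested genes and -1.18 for the abundant ones. On TMM sizes 2 of 10, Prdx3 and Sod1, were called higher, against 33.6% of all tested genes and 32.7% of the abundant ones, and 8 lower, against 33.0% of all tested genes and 61.2% of the abundant ones. On library totals 7 were called higher, against 82.3% of all tested genes, and 2 lower, against 11.7%. Sod1 had 0.56 (0.49 to 0.63), Prdx1 -0.53 (-0.56 to -0.50), Prdx6 -1.26 (-1.43 to -1.10) and Prdx4 -2.06 (-2.21 to -1.91). Gpx4 had -2.73 (-2.79 to -2.67) and Sod2 -2.37 (-2.49 to -2.26). On library totals, 5 enzymes (Prdx3, Prdx4, Prdx5, Prdx6 and Txn1) each had their own highest level of the 4 libraries in IP control. For Prdx1, Prdx2 and Sod1 that library was IP shGpr151, for Sod2 Input control and for Gpx4 Input shGpr151. Intervals of the 2 IP libraries overlapped on that scale for Prdx2, Prdx3, Prdx4, Prdx5, Prdx6, Sod1 and Sod2. Such overlap does not show that the levels are equal, and no order is read from it. Prdx4 was called lower in IP shGpr151 on TMM sizes, a call lost on library totals. In all, the 10 transcripts made up 0.504% of counts in Input control, 0.633% in Input shGpr151, 1.497% in IP control and 1.485% in IP shGpr151.

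**Figure D3:**
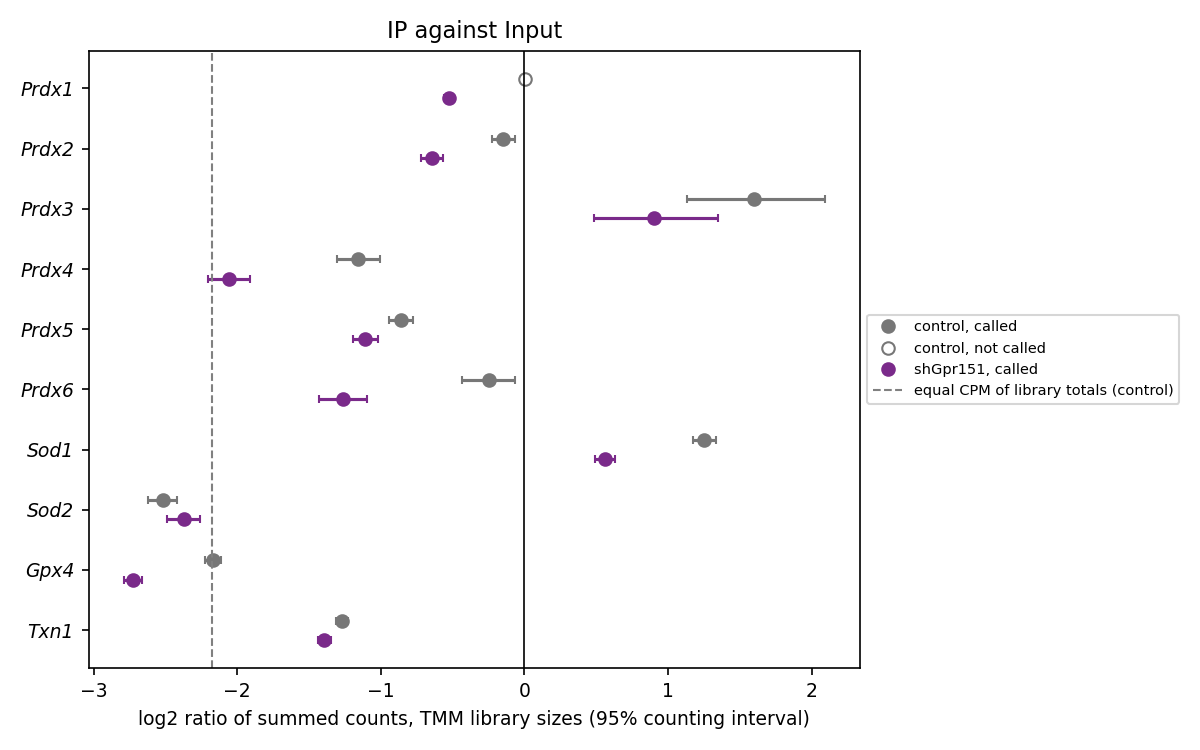
Log2 ratio of IP to Input for each enzyme in control (grey) and with shGpr151 (purple), on TMM library sizes with 95% counting intervals. Filled points are called, the open point is not, and the dashed line marks equal CPM of library totals in control. Prdx3 and Sod1 lie right of 0 and Gpx4 and Sod2 lie farthest left in both treatments, and the purple point is left of the grey one for every enzyme but Sod2.

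Ratios between members within a library need no scaling between libraries, so how such a ratio moves across the 4 libraries is free of the choice above. The ratio within 1 library also reflects transcript length and counting and is not read as a difference of level. Sod1 had 0.622 counts per Sod2 count (0.582 to 0.665) in Input control and 1.16 (1.09 to 1.24) in Input shGpr151. The log2 difference was 0.90 (0.77 to 1.03). Single columns of Input shGpr151 ran from 1.04 to 1.36, a spread that the counting interval does not cover. The highest was the column with 542 Sod2 counts, which stood apart from its partners. In IP control the ratio was 8.49 (7.999 to 9.02) and in IP shGpr151 8.88 (8.29 to 9.53), a log2 difference of 0.065 (-0.067 to 0.20). The cytosolic dismutase thus stood 3.77 (3.64 to 3.90) higher relative to the mitochondrial one in IP than in Input of control, on the log2 scale.

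Prdx1 counts per Txn1 count, the enzyme against its reductant, were 1.10 (1.07 to 1.14) in Input control and 1.65 (1.61 to 1.70) in Input shGpr151. They were 2.67 (2.61 to 2.73) in IP control and 3.01 (2.94 to 3.10) in IP shGpr151. Prdx1 per Txn1 was thus higher with shGpr151 in both fractions, by 0.59 (0.53 to 0.65) in Input and 0.18 (0.13 to 0.23) in IP on the log2 scale. Prdx1 and Prdx2 kept nearly the same ratio, at 5.32 in Input control, 5.51 with shGpr151 in Input, 5.91 in IP control and 5.97 with shGpr151 in IP. Between the Input libraries that ratio differed by 0.051 (-0.046 to 0.15) on the log2 scale, and between the IP libraries by 0.014 (-0.053 to 0.081). It was slightly higher in IP than in Input, by 0.15 (0.066 to 0.24) in control and 0.12 (0.035 to 0.20) with shGpr151. Gpx4 per Prdx1 was lower with shGpr151 by similar amounts in both fractions, -0.20 (-0.27 to -0.14) in Input and -0.23 (-0.30 to -0.15) in IP.

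**Figure D4:**
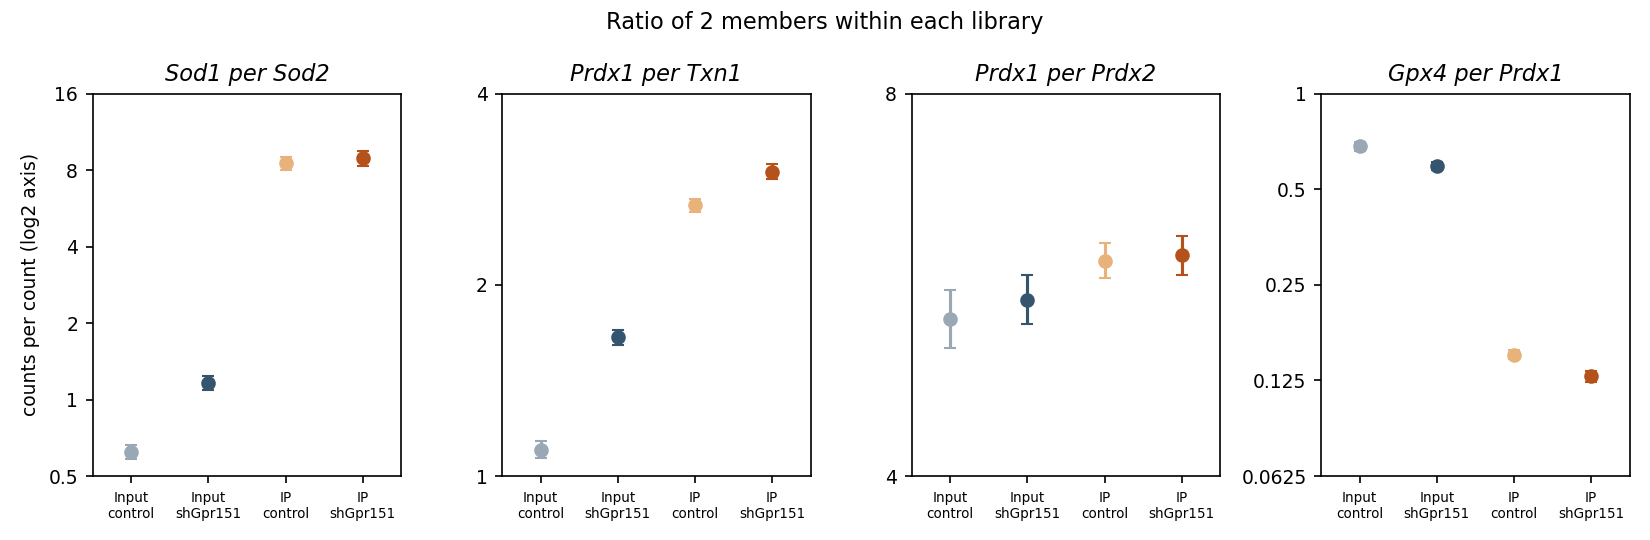
Counts of 1 enzyme per count of another within each library, on log2 axes that differ between panels, with exact binomial 95% intervals. Sod1 per Sod2 is 0.622 in Input control and above 8 in both IP libraries, Prdx1 per Txn1 increases from left to right, Prdx1 per Prdx2 stays between 5.32 and 5.97, and Gpx4 per Prdx1 is lowest in the IP libraries.

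Genes that work with these enzymes were taken from lists. The counts of each list stand beside 8.31% of all tested genes called higher and 8.66% lower in Input (25.4% and 24.7% of the abundant ones), and 3.72% higher and 4.97% lower in IP (8.76% and 18.2%). Of 18 tested genes of the thioredoxin system and peroxiredoxin repair, 3 were called higher and 1 lower in Input, with a median log2 ratio of 0.052, and 1 higher and 1 lower in IP, with a median of 0.044. The 2 genes called in IP were Srxn1 and Txndc17, and both also were called in Input, in the opposite direction. Srxn1, sulfiredoxin, which restores overoxidised peroxiredoxins, had 470 counts in Input control, 289 in Input shGpr151, 6245 in IP control and 5948 in IP shGpr151. Its log2 ratio of shGpr151 to control was -0.68 (-0.90 to -0.47) in Input and 0.26 (0.21 to 0.31) in IP, so that its IP minus Input difference was 0.94 (0.72 to 1.15), called higher. Srxn1 was therefore on the other side of 0 from the 8 called peroxidase, dismutase and thioredoxin genes in that test. For IP against Input in control it was called higher, at 2.14 (2.00 to 2.27) on TMM sizes. Txndc17, a thioredoxin-like protein, had 1815, 2471, 1722 and 1180 counts in the same order, with 0.47 (0.38 to 0.55) in Input and -0.22 (-0.33 to -0.11) in IP. Txndc9 at 0.62 (0.37 to 0.87) and the glutaredoxin Glrx at 0.98 (0.35 to 1.63) were also called higher in Input.

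Of 29 tested genes of glutathione synthesis and transferases, 9 were called higher and 3 lower in Input (median 0.21), and 0 higher and 2 lower in IP (median -0.092). Among all tested genes 8.31% were called higher and 8.66% lower in Input, and among the abundant ones 25.4% and 24.7%. In IP these shares were 3.72% and 4.97%, and 8.76% and 18.2%. Gstp1, a glutathione transferase, had 5032 and 7113 counts in the Input libraries, a log2 ratio of 0.52 (0.47 to 0.57), and -0.11 (-0.17 to -0.049) in IP. Esd, which releases glutathione from its formaldehyde adduct, had 0.46 (0.36 to 0.55) in Input and -0.15 (-0.21 to -0.093) in IP. Gstt2, at -0.46 (-0.50 to -0.42), and the glyoxalase Glo1, at -0.32 (-0.37 to -0.26), were called lower in Input. The IP minus Input difference was called lower for 9 of the 29 and higher for 3, with a median of -0.31. Of all tested genes 8.82% were called lower and 5.41% higher in that test, and of the abundant ones 28.3% and 14.1%. Gstp1 had -0.63 (-0.71 to -0.55).

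Of 30 tested genes of the Nrf2 pathway, 5 were called higher and 3 lower in Input, with a median of -0.20, below that of all genes, and 2 higher and 1 lower in IP, with a median of -0.039. The ferritin chains Fth1 and Ftl1, which store iron, were called higher in Input, at 0.29 (0.27 to 0.32) and 0.29 (0.25 to 0.32). Gclm, the modifier subunit of the enzyme that starts glutathione synthesis, was called lower, at -0.44 (-0.61 to -0.28). In IP, Mafg, a small Maf partner of Nrf2, was called higher, at 0.61 (0.26 to 0.95), and Akr1a1, an aldehyde reductase, lower, at -0.20 (-0.28 to -0.13). This list and the thioredoxin list share Srxn1 and Txnrd1, and the glutathione list shares Gclc, Gclm and Slc7a11 with it. The selenoprotein list shares Gpx1 and Gpx3 with the glutathione list and the thioredoxin reductases with the thioredoxin list. It also shares Txnrd1 with the Nrf2 list and Msrb1 with the list of dismutase partners.

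Of 20 tested selenoprotein genes and genes of the selenocysteine machinery, which Gpx4 needs, 4 were called higher and 0 lower in Input (median 0.15), and 0 were called in IP (median -0.047). Gpx1, the cytosolic glutathione peroxidase, had 0.23 (0.13 to 0.32) in Input, and Selenoh and Selenok had 0.28 (0.16 to 0.41) and 0.20 (0.11 to 0.30). The fourth was Trnau1ap, a factor of selenocysteine insertion, with only 16 and 39 counts. Of 14 tested partners of the dismutases, catalase and repair genes, 1 was called higher and 4 lower in Input (median -0.064), and 1 higher and 1 lower in IP (median -0.11). The metallothioneins Mt1 and Mt3, which bind zinc and copper, were lower in Input, at -0.37 (-0.41 to -0.34) and -0.36 (-0.44 to -0.29). Mt2 was called lower in Input, at -0.23 (-0.30 to -0.16), and higher in IP, at 0.30 (0.18 to 0.43). Atox1, a copper chaperone, was called lower in both, at -0.13 (-0.17 to -0.093) and -0.18 (-0.25 to -0.11). Of 7 tested ferroptosis genes, 0 were called in Input (median -0.055) and 1 higher and 1 lower in IP (median 0.12), Acsl4, which loads membranes with polyunsaturated lipid, at 0.37 (0.16 to 0.58) and the iron chaperone Pcbp1 at -0.16 (-0.24 to -0.085).

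By Euclidean distance over the 4 libraries from the mean profile of the 10 enzymes, among 1780 genes with at least 100 counts in each library, the 5 nearest were Tomm22 (0.0561), Fundc2 (0.0576), Psme1 (0.0757), Nol12 (0.0789) and Commd2 (0.0864). These are distances in centred log2 CPM on TMM sizes. The enzymes themselves lay farther from their own mean, from 0.233 for Prdx5 to 2.06 for Prdx3, so that mean stands for few of them.

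Markers of other cells moved between the libraries as follows, and their part in the results was not tested. Between Input control and Input shGpr151, the summed level of neuronal markers was 1645 and 1858 CPM, with columns at 1634 to 1662 and 1810 to 1902. That of 9 satellite glia markers was 907 and 835 CPM, of 8 Schwann cell markers 454 and 387 CPM, and of 8 fibroblast markers 559 and 489 CPM. The 12 macrophage and immune markers had 470 and 498 CPM, and the 7 endothelial and mural markers 170 and 226 CPM. Of the 15 neuronal markers 2 were called higher and 3 lower in Input, and of the endothelial and mural ones 3 of 6 tested higher and 0 lower. Of the 9 satellite glia markers 1 was called higher and 4 lower, and of 7 tested Schwann cell markers 0 and 2. Of the 8 fibroblast markers 0 were called higher and 2 lower, and of the 12 macrophage and immune ones 0 either way. Among all tested genes 8.31% were called higher and 8.66% lower in Input, and among the abundant ones 25.4% and 24.7%. Between IP control and IP shGpr151, fibroblast markers had 1064 and 1312 CPM, neuronal markers 21600 and 20610 CPM, and satellite glia markers 3032 and 3143 CPM. Of the 8 fibroblast markers 4 were called higher and 0 lower, of the neuronal ones 3 and 4, and of the satellite glia ones 2 and 2. Among Schwann cell markers the calls were 0 and 1, among macrophage and immune ones 1 and 0, and among endothelial and mural ones 0 and 0. The shares of all tested genes in IP were 3.72% higher and 4.97% lower, and of the abundant ones 8.76% and 18.2%. None of the 5 erythroid markers was among the genes analysed. The table lists only genes with at least 1 count in each column, so no listed marker is at 0.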

How the data were processed

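Sequencing libraries came from a barcoded cDNA-PCR kit for nanopore reads, as the labels state. Per the submitters' processing notes the tools were minimap2 and Salmon (no versions) and the genome GRCm39 (mm39). In the table that the authors deposited, each value is a whole-number count of a gene, not normalized, and at least 1. How reads shared with near copies (annotated symbols such as Prdx6b, Prdx6-ps2, Prdx2-rs3 and Gpx4-ps2) or with antisense genes were assigned is not stated, which leaves those members uncertain. Of the gene IDs 9061 had a symbol and 12 none.

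Groups came from sample titles, and nothing says whether columns come from separate animals or cultures. The members and lists were chosen with earlier results of these data known. Calls used edgeR 4.0.16 (R 4.3.3): TMM, filterByExpr at a minimum count of 10, 1 mean per group, glmQLFit and glmQLFTest, Benjamini-Hochberg at 0.05, tested on simulated data. The common BCV was 1.22%, which reflects noise between columns. No p-value of a gene is printed. Each ratio divides counts summed per group and scaled by TMM sizes, with an exact (Clopper-Pearson) interval, and differences of ratios have Wald intervals. Levels carry exact Poisson intervals. The 5 comparisons were the hairpin in Input and in IP, IP against Input in each treatment, and their difference. From each list, up to 4 called genes per comparison with the smallest p were eligible for naming. Genes with at least 1000 counts were added as a background after seeing the data. Alternatives were RLE size factors, library totals, all genes unfiltered, genes with a mean of at least 20 counts, DESeq2 1.42.0, a fit of only the compared groups, a block for the replicate number, each column left out, and 1 summed library per group with an assumed BCV of 10%.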

Additional observations from a re-analysis of the deposited data

Results flagged for a closer look

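For 8 of the 10 enzymes, the log2 ratio of shGpr151 to control was called lower in IP than in Input by edgeR's test of the difference itself. In that test 8.82% of all tested genes and 28.3% of the abundant ones were called lower. IP minus Input was -0.53 for Prdx1, -0.50 for Prdx2, -0.90 for Prdx4, -0.25 for Prdx5 and -1.01 for Prdx6. It was -0.69 for Sod1, -0.56 for Gpx4 and -0.13 for Txn1. Prdx5 and Txn1 were not called among genes with a mean of at least 20 counts, at -0.16 and -0.042. Each value is from 1 library per group, and at an assumed BCV of 10% 0 of them were called.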

How the results depend on the processing

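Between the IP libraries the counts of called enzymes were 0 higher and 3 lower. On library totals 1, Prdx1 at 0.045, was called higher, and with 1 summed library per group and a BCV of 10%, 0 were called lower. Leaving out columns gave 0 higher and 2 to 3 lower. Over all genes, 309 were called higher and 413 lower. DESeq2 gave 109 higher, library totals 260 lower, the BCV of 10% 0 higher and 1 lower, and left-out columns 193 to 324 higher and 374 to 442 lower.

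Between the Input libraries, 7 enzymes were called higher and 1 lower. The BCV of 10% left 1 higher and 0 lower, DESeq2 0 lower, and a mean of at least 20 counts 2 lower, with Txn1 at -0.11. Left-out columns gave 6 to 7 higher and 0 to 1 lower. Over all genes, 691 were called higher and 720 lower. The BCV of 10% gave 65 and 20, and left-out columns 601 to 814 and 584 to 680.

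For IP against Input, library totals turned the called ratios of Prdx2 (2.03), Prdx4 (1.02), Prdx5 (1.31), Prdx6 (1.92), Gpx4 (0.0054) and Txn1 (0.91) in control above 0. With shGpr151 they did so for Prdx1 (1.67), Prdx2 (1.55), Prdx4 (0.14), Prdx5 (1.09), Prdx6 (0.93) and Txn1 (0.80). That follows from the difference between totals and TMM sizes. Called enzymes were then 8 higher and 1 lower in control and 7 and 2 with shGpr151, and called genes 6962 and 921, and 6838 and 973, in place of 2703 and 2728, and 2796 and 2739. Left-out columns gave 2 to 3 enzymes higher and 5 to 7 lower in control, where Prdx1 lay at 0.087 to 0.10 without an IP column, and 2 higher and 8 lower with shGpr151. Genes called ran from 2430 to 2906 higher and 2572 to 2729 lower in control, and from 2554 to 2829 and 2596 to 2831 with shGpr151.

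For the difference of ratios, the BCV of 10% left 0 enzymes lower, with 3 genes higher and 12 lower, a mean of at least 20 counts called 1 enzyme higher (Sod2 at 0.23), and DESeq2 called 279 genes higher in place of 450. Left-out columns gave 0 enzymes higher, 8 to 9 lower, 295 to 407 genes higher and 672 to 842 lower. RLE size factors and the compared groups alone changed no call of an enzyme. The cause of the other changes was not tested. The replicate block changed no call of an enzyme either and left 3 lower and 0 higher in IP. Deviations of same-numbered columns correlated at -0.035 to 0.034 in 18 pairs. Because columns of a group differed only by counting noise, this correlation cannot show whether the numbers pair the columns. Depth limits Prdx3 in Input, with 42 and 57 counts.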
